A study of Mus musculus with 39 samples.

Results

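The genes described here are the 2 Myc-family transcription factors Mycn and Myc, the 3 D-type cyclins Ccnd1, Ccnd2 and Ccnd3, and 5 inhibitors of cyclin-dependent kinases (CDKs), Cdkn1a (p21), Cdkn1b (p27), Cdkn1c (p57), Cdkn2c (p18) and Cdkn2d (p19). They were chosen by name, as the rows of the deposited count table whose Entrez gene ID maps to these symbols, and all 10 were found among 24045 rows. Each row holds the reads of a library near 1 transcription start site (TSS). H3K4me3, trimethylation of histone H3 lysine 4, marks active promoters. H3K27me3, trimethylation of lysine 27, is set by Polycomb repressive complex 2 and marks silenced ones.

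ChIP-seq of both marks was made from cerebellar granule cells of C57Bl/6J mice at P7, P12 and P21 (postnatal day 7, 12 or 21), in 7 H3K4me3 libraries (3, 2 and 2 per stage) and 14 H3K27me3 libraries (5, 4 and 5). The P7 libraries were made from granule cell progenitors purified on a Percoll gradient, and the P12 and P21 libraries from nuclei sorted as positive for NeuN and NeuroD1 and sonicated for longer. Stage and isolation therefore cannot be told apart in a comparison with P7, whereas P12 and P21 were isolated alike. The labels do not say that replicates came from separate animals, so p-values measure the spread between these samples, which may be technical. In such bulk samples, fewer cells with a mark and less of the mark per cell cannot be told apart. Both comparisons with P7 use the same P7 libraries.

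In the external granule layer of the young cerebellum, Sonic hedgehog drives granule cell progenitors to divide, and Mycn and the D cyclins Ccnd1 and Ccnd2 are among the genes through which it does so. D cyclins pair with Cdk4 or Cdk6 to phosphorylate the retinoblastoma protein, which frees E2F factors to start S phase. Inhibitors of the INK4 family (Cdkn2c, Cdkn2d) bind Cdk4 and Cdk6 alone, and those of the CIP/KIP family (Cdkn1a, Cdkn1b, Cdkn1c) bind a wider range of cyclin-CDK complexes, to hold cells out of the cycle.

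Promoter sequences are shown for the members whose marks differ most from each other and for which RefSeq promoter records on GRCm38.p6, the assembly of the files' mm10 build, were at hand. Records matched 6 of the 10 members, with 9 windows. Myc, Ccnd1, Ccnd2 and Cdkn1c had none. Each sequence is the 250 bases before the start, 5′ to 3′ on the gene's strand. Capitals mark matches on either strand to TTTNNCGC, a form of the E2F site, to GGGCGG, the GC box, and to GTAAACA, the FOXO site. The Mycn promoter (chr12:12941837-12942086, minus strand) is shown as a start where H3K4me3 fell and H3K27me3 rose. The Cdkn1b promoter (chr6:134920151-134920400, plus strand) and the first Cdkn2c promoter (chr4:109666757-109667006, minus strand) are shown as starts with H3K4me3 and no H3K27me3 peak at any stage. The Ccnd3 and Cdkn1a promoters come in pairs, since in both genes an upstream and a downstream start carried different marks (Ccnd3 at chr17:47504801-47505050 and chr17:47593217-47593466, Cdkn1a at chr17:29090729-29090978 and chr17:29093519-29093768, all on the plus strand).
Mycn: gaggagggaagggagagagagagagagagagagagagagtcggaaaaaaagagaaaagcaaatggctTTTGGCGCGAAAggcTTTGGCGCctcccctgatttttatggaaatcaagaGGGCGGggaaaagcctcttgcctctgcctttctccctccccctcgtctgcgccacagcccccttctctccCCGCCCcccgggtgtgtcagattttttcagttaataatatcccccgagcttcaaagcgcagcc
Cdkn1b: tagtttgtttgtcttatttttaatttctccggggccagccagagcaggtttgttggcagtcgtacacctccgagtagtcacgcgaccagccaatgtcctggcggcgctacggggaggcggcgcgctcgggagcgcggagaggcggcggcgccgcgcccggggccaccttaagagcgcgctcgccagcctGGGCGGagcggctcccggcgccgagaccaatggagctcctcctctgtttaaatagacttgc
Cdkn2c: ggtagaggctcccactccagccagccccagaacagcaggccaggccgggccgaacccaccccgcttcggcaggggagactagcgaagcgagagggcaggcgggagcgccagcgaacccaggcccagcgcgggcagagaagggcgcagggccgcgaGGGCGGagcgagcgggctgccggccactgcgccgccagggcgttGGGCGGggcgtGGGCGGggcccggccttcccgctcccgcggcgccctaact
Ccnd3 upstream start: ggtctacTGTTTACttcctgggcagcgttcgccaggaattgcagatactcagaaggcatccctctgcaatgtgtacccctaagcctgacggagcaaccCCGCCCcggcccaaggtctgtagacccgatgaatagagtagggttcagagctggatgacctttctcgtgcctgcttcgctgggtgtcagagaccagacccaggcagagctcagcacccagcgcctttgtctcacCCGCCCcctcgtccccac
Ccnd3 downstream start: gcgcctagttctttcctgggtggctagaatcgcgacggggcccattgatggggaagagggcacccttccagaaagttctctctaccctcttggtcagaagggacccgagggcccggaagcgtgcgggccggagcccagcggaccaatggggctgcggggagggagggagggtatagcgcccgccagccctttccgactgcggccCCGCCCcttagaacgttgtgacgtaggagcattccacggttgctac
Cdkn1a upstream start: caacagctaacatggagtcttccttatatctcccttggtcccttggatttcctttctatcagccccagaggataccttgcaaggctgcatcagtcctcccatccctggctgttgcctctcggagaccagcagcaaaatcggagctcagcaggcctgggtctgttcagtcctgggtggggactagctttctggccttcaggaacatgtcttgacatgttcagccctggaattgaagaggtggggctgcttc
Cdkn1a downstream start: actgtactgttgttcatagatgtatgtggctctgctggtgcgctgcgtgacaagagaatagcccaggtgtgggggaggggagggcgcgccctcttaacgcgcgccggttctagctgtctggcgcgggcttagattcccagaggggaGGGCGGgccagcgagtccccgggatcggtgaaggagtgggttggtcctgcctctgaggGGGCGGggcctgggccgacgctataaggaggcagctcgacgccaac

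The Mycn window held 3 matches to TTTNNCGC, the first and second of which overlap by 4 bases and lie 183 to 172 bases before the start. It was 1 of 9 member windows with this motif, which 4.28% of all 32851 windows of the same length contained. GGGCGG stood in 7 of the 9 windows and in 32.7% of all windows, and GTAAACA stood in 1 of 9, upstream of the first Ccnd3 start, against 3.17% of all. Neither the E-box CACGTG (6.02% of all windows) nor the GLI motif GACCACCCA (0.225%) was found in these letters. The upstream Cdkn1a window held 2 CpG dinucleotides and the downstream one 19. The Ccnd3 pair held 11 and 19, the Mycn window 11, Cdkn1b 28 and Cdkn2c 29, against a median of 6 over all windows. A match of letters is a description of the window and not evidence of binding.

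Levels are given as CPM, read counts divided by the library size after edgeR's TMM scaling, which lines up libraries on their typical TSS. Changes are log2 fold changes with their standard error (SE), from edgeR's quasi-likelihood test over all TSS with Benjamini-Hochberg adjustment, and a call is an adjusted p under 0.05. Total counts per library ran from 431401 to 5653193 for H3K4me3 and from 264093 to 2035801 for H3K27me3, so the counts of 1 member in 1 library ranged from 5 to 1102 and from 0 to 416. All 10 members passed the filter on low counts for H3K4me3 and 8 of 10 for H3K27me3, Cdkn1b and Cdkn2c being left out. These 2 had 12 and 16 H3K27me3 counts over the P7 libraries together. Mycn, Myc and Cdkn2d were also low there, with 26, 30 and 17 counts, and passed through later libraries. Contrast between strong and typical TSS was lower after P7: the 95th percentile of H3K27me3 counts was 22.1 to 45 times the median in the P7 libraries and 5 to 12.9 times in the later ones. For H3K4me3 it was 5.15 to 9.32 times at P7 and 3 to 4.32 times later. TSS in the decile with the highest mean H3K27me3 had a median change of -2.0 from P7 to P21, and those in the lowest decile of 0.87. Members called from P7 to P21 are therefore also set beside the TSS in their own decile of mean signal for that mark. That mean runs over all libraries of the mark, later stages included, so a member's own change helps to set its decile. The part of the lower contrast after P7 in the results was not tested.

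Mycn, Myc and Ccnd2 fell in H3K4me3 and rose in H3K27me3 from P7 to P21. Cdkn1b and Cdkn2c fell in H3K4me3 and had no H3K27me3 peak at their starts that 2 lists shared. From P7 to P21, 7 of the 10 members fell in H3K4me3 and none rose, where 14.4% of all TSS tested were called lower and 8.98% higher (23.3% in either direction). These 7 lay in deciles 7 to 10 of mean H3K4me3. There 19.2% to 48.2% of TSS were called lower, and the decile medians ran from -0.35 to -0.58. With library totals in place of TMM, Cdkn1a was called higher. Leaving out 1 library moved the number of TSS called in H3K4me3 from 4844 to between 660 (without P21 replicate 1) and 11444 (without P7 replicate 2), and at P12 from 3018 to between 69 (without P12 replicate 2) and 8191 (without P7 replicate 2). In H3K27me3, Myc, Mycn and Ccnd2 rose and Ccnd1 and Ccnd3 fell among the 8 tested, where 25.4% of TSS rose and 23.5% fell (48.9% in either direction). The median H3K4me3 change was -0.93 over the 10 members and 0.19 over all TSS, and the median H3K27me3 change was 0.35 over the 8 and 0.34 over all TSS. These shares depend on the scaling: with library totals in place of TMM, 63.3% instead of 38.5% of the H3K4me3 calls and 83.9% instead of 52.0% of the H3K27me3 calls pointed upwards. For H3K4me3 the upward share was 28.6% with RLE and 6.42% with DESeq2. At P12 against P7, 4 members fell and none rose in H3K4me3, where 9.21% of TSS were lower and 5.34% higher. In the deciles of these 4, between 15.7% and 36.8% of TSS were called lower. Of the TSS tested, the CPM of P7 and P21 did not overlap in 54.1% for H3K4me3 and 28.5% for H3K27me3. The share was 49.6% and 27.1% for P7 and P12, and 30.2% and 4.6% for P12 and P21, and statements on overlap below are to be read against it.

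**Figure D1:**
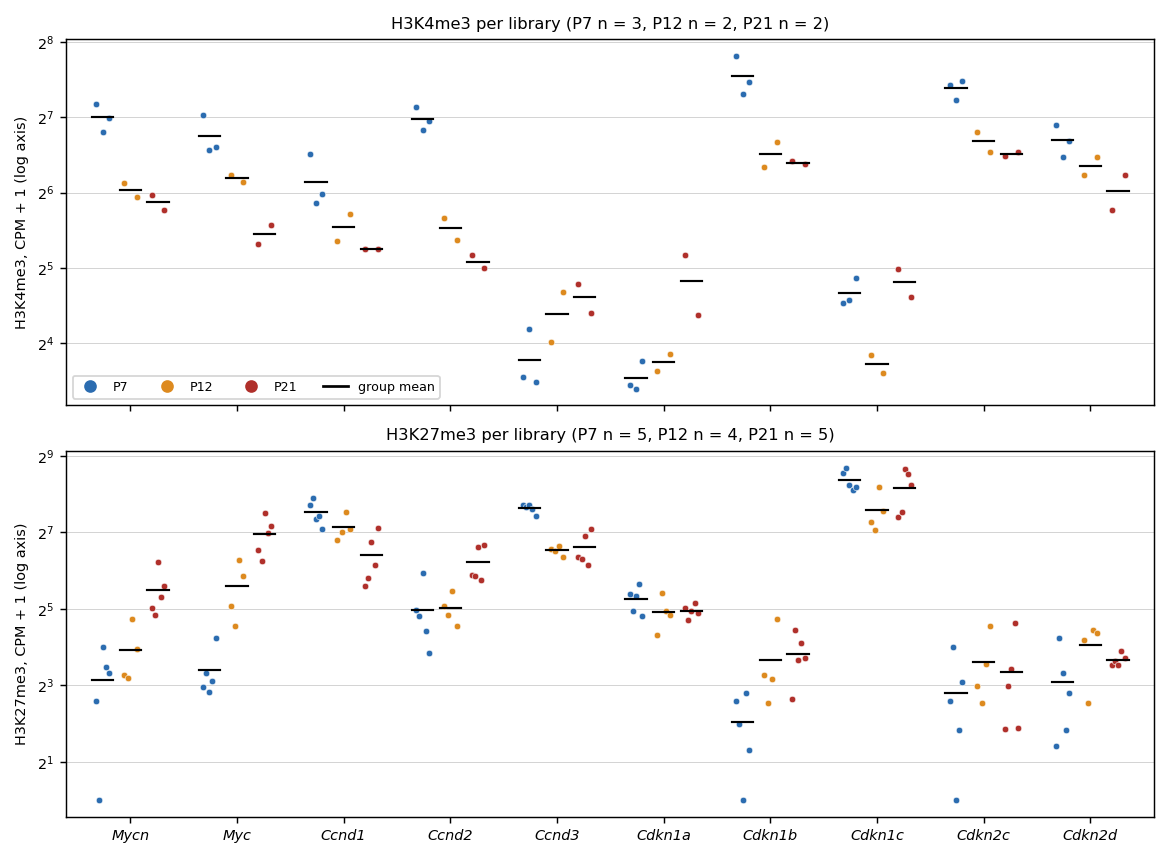
CPM + 1 per library (points, log axis) of H3K4me3 (top) and H3K27me3 (bottom) at the 10 gene starts at P7, P12 and P21, with group means (bars). H3K27me3 at Myc lies between 6.06 and 17.96 CPM in the 5 P7 libraries and between 75.8 and 182 CPM in the 5 P21 libraries.

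Mycn encodes the Myc-family factor that drives the expansion of granule cell progenitors downstream of Sonic hedgehog. Its start on chromosome 12 carried 144, 111 and 126 CPM of H3K4me3 in the 3 P7 libraries, 68.7 and 60.5 CPM at P12, and 61.6 and 53.4 CPM at P21. All P7 libraries lay above all later ones, while P12 and P21 overlapped. The fall was -0.99 (SE 0.28, adjusted p = 0.00917) from P7 to P12, where 14.5% of TSS were called and 9.21% were lower, and -1.19 (SE 0.26, adjusted p = 2.61e-04) from P7 to P21. The median change in its decile was -0.51 from P7 to P21, and 36.6% of those TSS were called lower. The call at P12 was lost without P12 replicate 1 (-1.10, adjusted p = 0.125) or 2 (-0.97, adjusted p = 0.241), with the replicate block and with trended scaling (-0.56, adjusted p = 0.173). The call at P21 was lost without P21 replicate 2 (-1.08, adjusted p = 0.0606).

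H3K27me3 at Mycn was 5.07, 0, 15.1, 10.2 and 8.98 CPM at P7, 8.61, 8.07, 25.7 and 14.6 CPM at P12, and 31.6, 27.6, 73.8, 38.7 and 47.6 CPM at P21. Every P21 library lay above every P7 and P12 library, whereas P7 and P12 overlapped. The change from P7 to P12 was 0.95 (SE 0.41, adjusted p = 0.0667), past the threshold with size factors by relative log expression (RLE; 1.05, adjusted p = 0.0354) and with library totals (1.83, adjusted p = 2.26e-04), as well as without P7 replicate 3 or P21 replicate 4, and that from P12 to P21 was 1.52 (SE 0.32, adjusted p = 0.00105). From P12 to P21, between nuclei isolated alike, 3.97% of all TSS were called, 0.918% higher and 3.06% lower. From P7 to P21 the rise was 2.47 (SE 0.35, adjusted p = 3.32e-08), a 5.53-fold difference, against a median of 0.56 in its decile. Within replicates 1 and 2, which share an input at each stage, it was 3.02 (adjusted p = 0.00213), and within the later replicates, each with an input of its own, 2.33 (adjusted p = 4.55e-05). The rise from P12 to P21 was 1.73 (adjusted p = 0.0867) and 1.40 (adjusted p = 0.126) in these 2 subsets.

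Myc, the founding member of the family, is transcribed from chromosome 15. Its H3K4me3 was 130, 93.6 and 96.6 CPM at P7, 74.4 and 69.5 CPM at P12, and 39.0 and 46.4 CPM at P21. The 3 stages did not overlap, and the levels stepped down from one to the next. The change was -1.31 (SE 0.28, adjusted p = 1.49e-04) from P7 to P21, while those from P7 to P12 (-0.60, SE 0.28, adjusted p = 0.116) and from P12 to P21 (-0.72, SE 0.33, adjusted p = 1.00) passed no threshold. Without P7 replicate 2 the change to P12 was called (adjusted p = 0.0311). TSS of its decile had a median change of -0.42 from P7 to P21, and 24.9% of them were called lower. No TSS of 20748 was called in H3K4me3 from P12 to P21 by edgeR (0%, with 206 at an unadjusted p under 0.05) or by DESeq2 (57 unadjusted).

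Myc had the largest H3K27me3 change of the members. It was 6.76, 8.996, 6.06, 7.66 and 17.96 CPM at P7, 32.7, 22.6, 76.2 and 57.5 CPM at P12, and 92.1, 75.8, 182, 125 and 143 CPM at P21. P7 stood below both later stages in every library, and P12 and P21 overlapped in 1 library of each. The rise was 2.38 (SE 0.33, adjusted p = 4.28e-08) from P7 to P12, where 36.4% of TSS were called and 14.4% were higher. It was 1.32 (SE 0.26, adjusted p = 3.00e-04) from P12 to P21 and 3.70 (SE 0.31, adjusted p = 2.92e-15), or 13-fold, from P7 to P21. TSS of its own decile had a median of -0.63 over that interval, and 16.6% of them rose. The later levels of Myc helped to place it in that decile. By its P7 mean alone it stood at percentile 34.2 of all rows, so the decile is not a baseline matched at P7. The P7 to P21 rise was 3.34 (adjusted p = 2.59e-07) in replicates 1 and 2 and 3.8 (adjusted p = 4.36e-09) in the later ones, and that from P12 to P21 was 1.53 (adjusted p = 0.00332) and 1.15 (adjusted p = 0.315).

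H3K27me3 also rose at both neighbours of Myc in the table. Pvt1, the long non-coding RNA gene 52.6 kb downstream of the Myc start, rose by 0.85 (SE 0.32, adjusted p = 0.0275) in H3K27me3 from P7 to P21, and D030024E09Rik, 211 kb upstream, rose by 2.55 (SE 0.27, adjusted p = 1.56e-11). Beside Mycn, 4921511I17Rik, 549 kb away, changed by 0.74 (SE 0.34, adjusted p = 0.0640) and Ddx1, the helicase gene 307 kb away, was left out by the filter.

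The 3 TSS whose H3K27me3 was most like that of Myc over the 14 libraries were Cd24a (r = 0.976), Sntg2 (0.971) and Plekhg2 (0.965). For Mycn they were 1700020M21Rik (0.946), Tnfrsf1a (0.935) and 6720468P15Rik (0.934), and for Ccnd2 they were Fscn2 (0.927), Egfem1 (0.927) and Gm15910 (0.905). For H3K4me3 over 7 libraries, the closest to Ccnd2 were Bub1b (0.997), Gosr1 (0.996) and Cep55 (0.994), to Cdkn1b Kat7 (0.996), 1110038B12Rik (0.996) and Trmt12 (0.994), and to Myc Ccdc43 (0.997), Wbp1l (0.995) and Zscan26 (0.993). These correlations are descriptions: the points share stage, isolation and depth, and 1247 TSS exceeded 0.9 with Ccnd2 in H3K4me3 against 3 in H3K27me3.

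The D cyclins are given in turn, and differences between them were not tested. Ccnd2, the D cyclin most tied to granule cell progenitors, carried 139, 113 and 123 CPM of H3K4me3 at P7, 49.6 and 40.4 CPM at P12, and 34.9 and 30.9 CPM at P21. All 3 stages were separate, with the main step before P12. Its falls of -1.48 (SE 0.31, adjusted p = 1.83e-04) to P12 and -1.97 (SE 0.29, adjusted p = 1.11e-08) to P21 left 0.255 of the P7 level. In its decile the median change to P21 was -0.42 and 24.9% were called lower. The P12 call was lost without P12 replicate 2 (-1.41, adjusted p = 0.126). The neighbouring non-coding gene 9330179D12Rik, whose start lies 2.80 kb away, fell by 1.85 on the log2 scale (SE 0.26, adjusted p = 2.26e-09), and since the counted window is not given, reads shared by both rows cannot be told apart.

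H3K27me3 at Ccnd2 was 30.4, 26.99, 60.6, 20.4 and 13.5 CPM at P7, 32.7, 27.5, 43.6 and 22.3 CPM at P12, and 57.9, 57.4, 97.0, 52.7 and 102 CPM at P21. P7 and P12 overlapped throughout, and every P21 library exceeded every P12 library but not the highest P7 library. The change was 0.20 (SE 0.33, adjusted p = 0.658) to P12 and then 1.21 (SE 0.30, adjusted p = 0.00716) from P12 to P21. It came to 1.41 (SE 0.30, adjusted p = 9.35e-05) from P7 to P21. In its decile the median over that interval was 0.052, with 23.5% called higher and 25% lower. The P12 to P21 rise rested on P12 replicate 4, without which it was 0.99 (adjusted p = 0.106), and in replicates 1 and 2 alone it was 0.87 (adjusted p = 0.125) and in the later ones 1.34 (adjusted p = 0.327). The P7 to P21 rise was 0.90 (adjusted p = 0.0361) and 1.62 (adjusted p = 0.00616) in the same subsets.

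Ccnd1, the other hedgehog-responsive D cyclin, had 90.0, 57.3 and 62.1 CPM of H3K4me3 at P7, 40.1 and 51.6 CPM at P12, and 36.9 and 37.0 CPM at P21. The groups did not overlap. In its H3K4me3 decile the median change from P7 to P21 was -0.35, and 19.2% were called lower. Ccnd1 at P21 was below P7 by -0.96 (SE 0.31, adjusted p = 0.0177). That call was lost in 6 of 14 alternatives, among them library totals (-0.74, adjusted p = 0.0559) and the removal of P7 replicate 1 (-0.72, adjusted p = 0.0721), P21 replicate 1 (-1.08, adjusted p = 0.153) or P21 replicate 2 (-0.98, adjusted p = 0.168). Its H3K27me3 was 208, 237, 164, 173 and 135 CPM at P7, 110.2, 129, 186 and 136 CPM at P12, and 47.4, 55.1, 106, 70.0 and 139 CPM at P21. All 3 stages overlapped with each other, P7 and P21 included. The change from P7 to P21 was -1.14 (SE 0.25, adjusted p = 1.57e-04) under TMM, -0.02 with library totals and 0.08 with an offset that follows signal strength (trended scaling), so its direction depends on the scaling. It was -2.17 (adjusted p = 2.67e-08) in replicates 1 and 2 and -0.55 (adjusted p = 0.245) in the later ones. TSS of its decile had a median of -2.0, and 92% of them were called lower. From P12 to P21 the H3K27me3 change of Ccnd1 was negative under each scaling. It was -0.76 (SE 0.26, adjusted p = 0.0913) under TMM and -0.62 (adjusted p = 0.0585) with library totals. With RLE it was -0.82 (adjusted p = 0.0438) and with trended scaling -0.59 (adjusted p = 0.0326). Replicates 1 and 2 gave -1.28 (adjusted p = 0.00350) and the later ones -0.63, without a call.

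Ccnd3 had low H3K4me3 in its counted row, with 10.7, 17.2 and 10.2 CPM at P7, 15.3 and 24.7 CPM at P12, and 26.7 and 20.2 CPM at P21. The P21 libraries lay above P7, but the difference of 0.92 (SE 0.51, adjusted p = 0.146) passed no threshold. Its H3K27me3 was 209.7, 201, 209, 196 and 172 CPM at P7, 94.7, 90.4, 100 and 80.6 CPM at P12, and 81.6, 78.1, 119, 70.0 and 136 CPM at P21. All P7 libraries stood above all later ones, with changes of -1.10 (SE 0.24, adjusted p = 1.52e-04) to P12 and -1.02 (SE 0.22, adjusted p = 1.59e-04) to P21. Both calls were lost with library totals and with trended scaling: the P12 change was then -0.14 (adjusted p = 0.478) and -0.091 (adjusted p = 0.691), and the P21 change reversed to 0.069 and 0.15. In replicates 1 and 2 these changes were -1.17 and -1.45, and in the later ones -1.04 (adjusted p = 0.0634) and -0.79 (adjusted p = 0.0863). TSS of its H3K27me3 decile had a median of -0.63 from P7 to P21, and 50.6% of them were called lower.

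**Figure D2:**
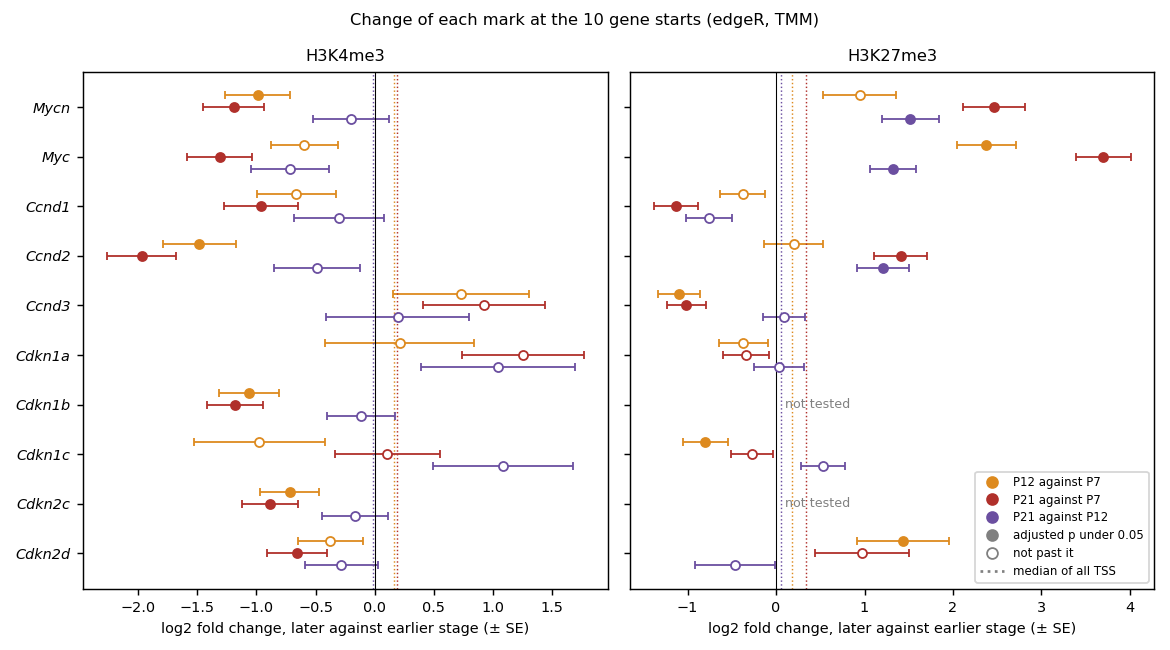
Log2 fold changes (± SE) of H3K4me3 (left) and H3K27me3 (right) between stages for each member. Filled points passed an adjusted p of 0.05 and dotted lines give the median of all TSS in the same colour. Myc, Mycn and Ccnd2 stand to the left for H3K4me3 and to the right for H3K27me3, while the H3K27me3 changes from P7 to P21 of Ccnd1 and Ccnd3, drawn as scaled by TMM, turned positive with trended scaling.

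Of the CIP/KIP inhibitors, Cdkn1b changed in H3K4me3. It encodes p27, which accumulates as granule cell precursors leave the cycle. Its levels were 223, 157 and 175 CPM at P7, 80.1 and 101 CPM at P12, and 84.1 and 82.5 CPM at P21. P7 stood above both later stages, which overlapped. The falls were -1.06 (SE 0.25, adjusted p = 0.00183) to P12 and -1.18 (SE 0.24, adjusted p = 6.67e-05) to P21. In the highest decile, to which it belongs, the median was -0.58 and 48.2% were called lower. The P12 call was lost without P12 replicate 1 (-0.91, adjusted p = 0.153) or 2 (-1.29, adjusted p = 0.111), and with trended scaling (-0.53, adjusted p = 0.173). Its H3K27me3 was at most 7 counts in any P7 library and 30 in any library, too low to be tested.

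Cdkn1a, the p53-induced inhibitor p21, and Cdkn1c, the imprinted inhibitor p57, had low H3K4me3 in their counted rows. The downstream Cdkn1a start, described below, had H3K4me3 peaks at each stage. Cdkn1a had 9.93, 9.55 and 12.6 CPM at P7, 11.4 and 13.5 CPM at P12, and 34.9 and 19.7 CPM at P21. The P21 libraries lay above P7 and P12, with a difference from P7 of 1.25 (SE 0.52, adjusted p = 0.0585) that passed no threshold. It was 1.503 with library totals, where it was called higher (adjusted p = 0.0423), as it was without P7 replicate 2 (adjusted p = 0.0284), and 0.17 with trended scaling. Its H3K27me3 lay between 26.9 and 49.3 CPM at P7 and between 25.3 and 34.4 CPM at P21, overlapping, with a change of -0.34 (SE 0.27, adjusted p = 0.279) that was 0.75 (adjusted p = 0.0143) with library totals.

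Cdkn1c had 22.1, 22.9 and 28.3 CPM of H3K4me3 at P7, 13.4 and 11.2 CPM at P12, and 30.8 and 23.4 CPM at P21. No change was called under TMM, and with trended scaling the change from P7 to P12 was -1.69 (adjusted p = 0.0467). Its H3K27me3 was 372, 414, 299.8, 275 and 289 CPM at P7, 155, 132, 292 and 188 CPM at P12, and 168, 186, 404, 366 and 301.6 CPM at P21. The stages overlapped. The difference at P12 of -0.80 (SE 0.25, adjusted p = 0.00991) and that at P21 of -0.27 (SE 0.24, adjusted p = 0.337) were 0.59 and 1.55 (adjusted p = 1.12e-10) with trended scaling, so no direction against P7 holds across scalings. In replicates 1 and 2 they were -1.46 (adjusted p = 2.56e-07) and -1.22 (adjusted p = 6.77e-06), and in the later ones -0.22 (adjusted p = 0.717) and 0.33 (adjusted p = 0.453). The P12 call was lost without P12 replicate 2 (-0.73, adjusted p = 0.0606). TSS of its H3K27me3 decile had a median of -2.0 from P7 to P21, and 92% of them were called lower. From P12 to P21 its H3K27me3 change was positive under each scaling. It was 0.53 (SE 0.25, adjusted p = 0.317) under TMM and 0.47 (adjusted p = 0.396) with RLE. With library totals it was 0.68 (adjusted p = 0.0177) and with trended scaling 0.96 (adjusted p = 4.37e-05). Neither input arrangement alone gave a call (0.24 and 0.55). Slc22a18, a transporter gene 12.7 kb upstream in the same imprinted domain, rose by 1.32 (SE 0.28, adjusted p = 9.17e-05) in H3K27me3 from P7 to P21.

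Both INK4 members had H3K4me3 at P7 and H3K27me3 levels of at most 23.7 CPM in any library. Cdkn2c (p18), which granule cell progenitors express around the time of exit, had 172, 149 and 178 CPM of H3K4me3 at P7, 111 and 91.9 CPM at P12, and 88.2 and 91.9 CPM at P21. The later libraries stood below P7, with P12 at or just above P21, and the falls were -0.72 (SE 0.25, adjusted p = 0.0361) to P12 and -0.89 (SE 0.24, adjusted p = 0.00373) to P21, in a decile whose median to P21 was -0.58. At P21 the fall missed the threshold without P21 replicate 1 (-0.98, adjusted p = 0.0562) or 2 (-0.94, adjusted p = 0.0660), and the P12 call without P7 replicate 1 or 3 or either P12 library (adjusted p between 0.0683 and 0.345). The P12 call was lost in 8 of 14 alternatives, also with library totals (-0.51, adjusted p = 0.0924) and with trended scaling (-0.17, adjusted p = 0.693). Cdkn2d (p19), which with p27 keeps neurons out of the cycle, had 118, 87.9 and 102 CPM at P7, 74.4 and 87.4 CPM at P12, and 53.3 and 74.0 CPM at P21. The groups did not overlap with P7. In its decile the median change to P21 was -0.51, and 36.6% were called lower. Cdkn2d itself changed by -0.66 (SE 0.26, adjusted p = 0.0466) to P21. That call was lost in 10 of 14 alternatives, among them the removal of any 1 library but P7 replicate 2 (adjusted p between 0.0715 and 0.291). In H3K27me3 Cdkn2d had 1 to 6 counts per P7 library and 3 to 23 at P12, and the rise to P12 of 1.43 (SE 0.52, adjusted p = 0.0264) was lost in 7 of 22 alternatives, 6 of them the removal of P7 replicate 1, 4 or 5 or P12 replicate 1, 3 or 4 (adjusted p between 0.0508 and 0.138). It lay in the lowest decile, whose median change to P12 was 0.91, with 24.3% called higher.

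**Figure D3:**
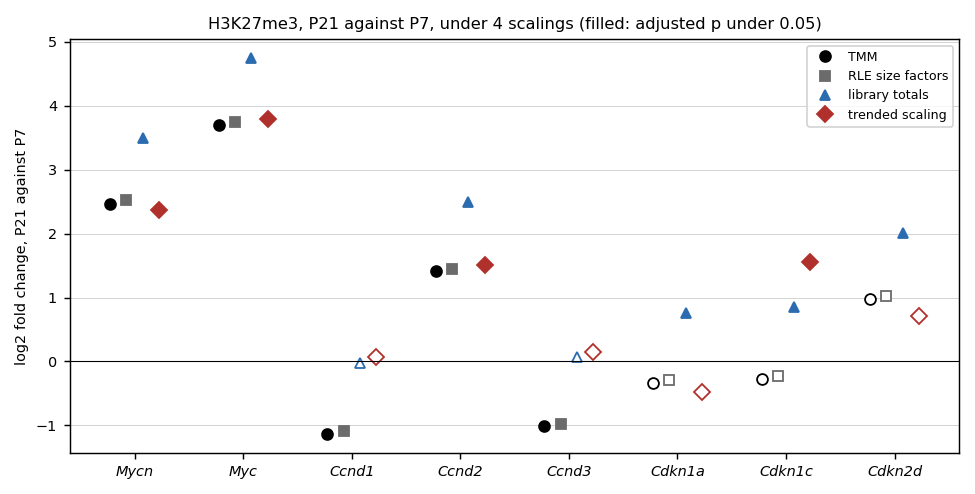
Log2 fold change of H3K27me3 from P7 to P21 for the 8 members tested, under 4 ways of scaling the libraries (symbols), filled where the adjusted p was under 0.05. Mycn, Myc and Ccnd2 stay above 0 under all 4, from 1.41 to 4.75, while Ccnd1, Ccnd3, Cdkn1a and Cdkn1c change sign between scalings.

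Scaling by library totals moved the median H3K27me3 change of all TSS from 0.34 to 1.42 for P21 against P7. Relative to that median, Myc was 3.36 above under TMM and 3.33 with library totals, Mycn 2.13 and 2.08, and Ccnd2 1.07 and 1.07. Ccnd1 was 1.48 and 1.44 below the median and 0.17 below it with trended scaling. For Cdkn1c the relative change was -0.61, -0.56 and 1.31 under the 3 scalings. In H3K4me3, Mycn, Myc, Ccnd2 and Cdkn1b remained past the threshold at P21 with trended scaling, at -0.76, -0.91, -1.63 and -0.65. Ccnd1, Cdkn2c and Cdkn2d did not.

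The deposited peak lists gave a second readout at the same starts. A start was counted as marked where a stretch covered by at least 2 peak lists of a stage came within 1 kb of its annotated TSS. For H3K4me3 this means 2 of 3 lists at P7 but both lists at P12 and at P21, a stricter rule at the later stages. For genes with several starts this was the most upstream one. At P7, 5 members (Mycn, Myc, Cdkn1b, Cdkn2c and Cdkn2d) carried H3K4me3 alone, where 33.9% of all starts did. Ccnd1 and Ccnd2 carried both marks, as did 13% of all starts, and Ccnd3, Cdkn1a and Cdkn1c carried H3K27me3 alone (14.8%). The remaining 38.2% of starts carried neither. H3K4me3 stretches marked 7 members and 47% of all starts at P7, then 6 and 28.7% at P12, then 2 and 25.6% at P21. H3K27me3 stretches marked 5 members and 27.8% of starts, then 5 and 17.3%, then 6 and 19.1%. At P12, Myc and Ccnd1 carried both marks (2.2% of all starts) and Ccnd2, Ccnd3 and Cdkn1c only H3K27me3 (15.1%). Mycn, Cdkn1b, Cdkn2c and Cdkn2d had only H3K4me3 (26.5%), and Cdkn1a had neither (56.2%). At P21, 6 members carried H3K27me3 alone (17.8%): Mycn, Myc and the 3 D cyclins with Cdkn1c. Cdkn1b and Cdkn2c kept H3K4me3 alone (24.3%), and Cdkn1a and Cdkn2d had neither (56.6%). No member carried both at P21, against 1.32% of starts.

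A change from H3K4me3 alone at P7 to H3K27me3 alone at P21 was made by Mycn and Myc, 2 of the 5 members of that class, and by 171 of all 8142 starts in it (2.1%). From both marks at P7 to H3K27me3 alone, the path of Ccnd1 and Ccnd2, went 32.6% of 3128 starts. The absence of H3K4me3 at P21 rests on needing both P21 lists. P21 replicate 2, with the greater depth, had an H3K4me3 peak at Mycn, Myc, Ccnd1 and Ccnd2, and without replicate 1, 6 members instead of 2 counted as marked. For H3K27me3, 1 of 5 libraries at P7 and 4 of 5 at P21 had a peak at Mycn, and 0 of 5, 3 of 4 and 5 of 5 at P7, P12 and P21 had one at Myc.

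**Figure D4:**
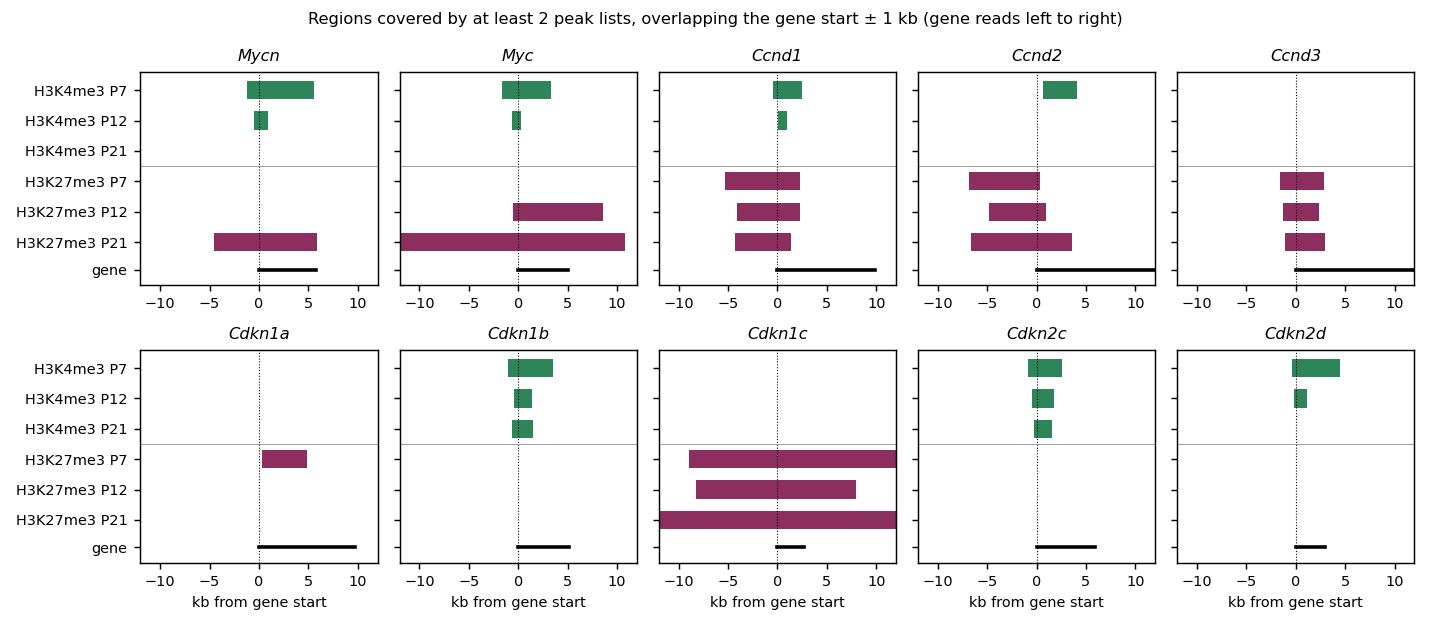
Stretches covered by at least 2 peak lists of H3K4me3 (green) and H3K27me3 (purple) at each stage that overlap the gene start with 1 kb on either side, in kb from the start, with the gene to the right (black). Bars at the panel edges run further. H3K27me3 covers the starts of Mycn, Myc and Ccnd2 at P21, and Cdkn1b and Cdkn2c show H3K4me3 alone at all 3 stages.

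The position of the regions added to the counts. At Ccnd2 in P7 progenitors both marks lay side by side without sharing a base: H3K4me3 covered chr6:127148103-127151532, inside the gene, and H3K27me3 covered chr6:127151882-127159034, the start and the stretch upstream of it, with a gap of 349 bases. At P21 the H3K27me3 region, chr6:127148580-127158788, reached over the stretch that had carried H3K4me3. At Ccnd1 in contrast the marks shared 2755 bases at P7, between chr7:144937389-144940316 for H3K4me3 and chr7:144937562-144945102 for H3K27me3. At Myc the H3K27me3 region was 9051 bp long at P12 (chr15:61984841-61993891) and 27334 bp at P21 (chr15:61968847-61996180), longer than the gene of 5021 bp. At Mycn it was 10367 bp at P21 (chr12:12935987-12946353) and so covered the whole gene of 5744 bp. At P21, 2 of 5 lists suffice, so the widest lists set these lengths. In single P21 lists the peaks within 1 kb of the start spanned 5378 to 95998 bp at Myc, with a median of 11245 bp. At Mycn 1 list had no such peak, the widest spanned 11648 bp and the median was 6799 bp. H3K4me3 regions became narrower from P7 to P12, from 6778 to 1335 bp at Mycn, 4940 to 908 bp at Myc and 4516 to 1762 bp at Cdkn1b. The rule needs 2 of 3 lists at P7 but both lists at P12, which by itself narrows the P12 regions. In single lists the peaks at Mycn spanned 5345 to 7099 bp at P7 and 1479 and 3858 bp at P12. At Myc they spanned 4744 to 6055 bp, and 1001 and 1268 bp. Peak lists held 8672 to 12921 H3K4me3 peaks per library at P7 and 7568 to 8196 at P12. The part of calling depth in these widths was not tested.

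How far H3K27me3 peaks covered the region that held H3K4me3 at P7 was measured in each H3K27me3 library, a measure chosen after the peak positions were seen. At Myc the covered share was 0% in all 5 P7 libraries, 20.3%, 0%, 78.7% and 77.1% at P12, and 52.3%, 51.9%, 100%, 100% and 100% at P21. At Mycn it was 0% in 4 P7 libraries and 14.8% in the other, 0%, 0%, 73.1% and 21.1% at P12, and 39.0%, 53.2%, 100%, 94.8% and 100% at P21. P7 and P21 did not overlap in either gene. At Ccnd2 it was 0%, 0%, 37.1%, 0% and 0% at P7 and 0%, 4.111%, 86.1%, 53.2% and 91.8% at P21, so that the groups overlapped. At Ccnd1 it went the other way, from between 79.2% and 100% at P7 to 0%, 0%, 72.3%, 62.1% and 52.3% at P21.

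The mean cover was 0% at P7 and 80.8% ± 26.3 at P21 (SD, n = 5 and 5) at Myc, 2.95% ± 6.61 and 77.4% ± 29.1 at Mycn, 7.42% ± 16.6 and 47.0% ± 43.6 at Ccnd2, and 89.8% ± 8.499 and 37.4% ± 34.8 at Ccnd1. Since the peak positions prompted the measure, these values are a description with no test. The lists differed in length: the P21 lists of replicates 1 and 2 held 6440 and 6442 H3K27me3 peaks and those of the later replicates 38421 to 50222, against 12211 and 14507, and 25403 to 33608, at P7. The inputs of the later replicates held 8804 to 86149 peaks, and the input of P21 replicate 4 had a peak at the starts of Mycn and Myc, and that of P12 replicate 3 at Myc. The part of list length in the cover was not tested. Within the replicates with their own input the differences were 100 percentage points at Myc, 93.4 at Mycn, 64.6 at Ccnd2 and -28.8 at Ccnd1. Within replicates 1 and 2, which share an input, they were 52.1, 46.1, 2.06 and -87.8. At Cdkn1b, Cdkn2c and Cdkn2d no H3K27me3 peak touched the P7 H3K4me3 region in any of the 14 libraries.

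**Figure D5:**
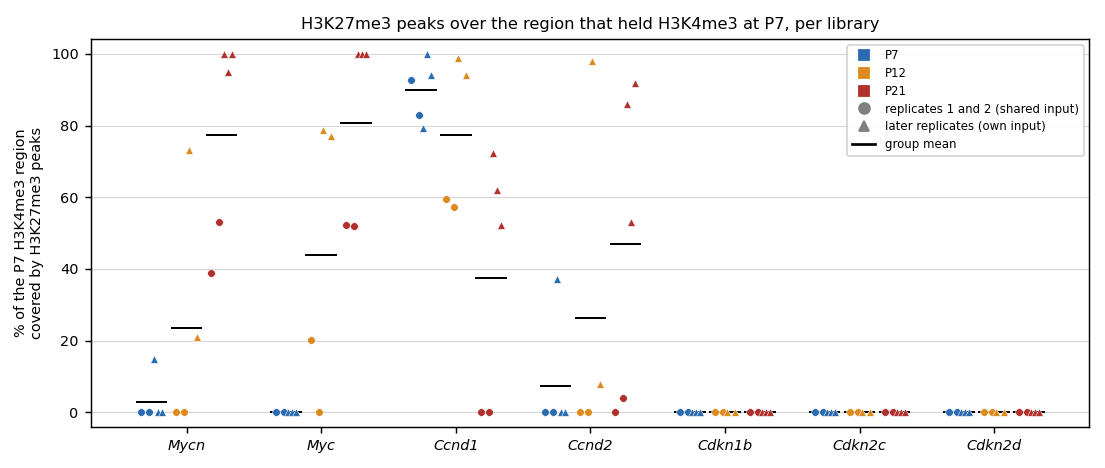
Share of the P7 H3K4me3 region covered by H3K27me3 peaks in each H3K27me3 library (points, by stage and input arrangement) with group means (bars), for the 7 members that had such a region. Myc and Mycn lie between 0% and 14.8% at P7 and between 39.0% and 100% at P21, Ccnd1 is lower at P21, and the 3 CDK inhibitors stay at 0%.

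Annotated starts of the same gene differed in their peaks at Ccnd3, Cdkn1a and Ccnd2. The upstream Ccnd3 start (chromosome 17, position 47505051) had an H3K27me3 peak within 1 kb in 5 of 5 P7 libraries, 3 of 4 at P12 and 3 of 5 at P21, and no H3K4me3 peak in any of 7 libraries. The downstream start (47593467) had an H3K4me3 peak in all 7 libraries and no H3K27me3 peak in 14. The count table has 1 row for the gene and does not name the start it counts. At Cdkn1a the upstream start (29090979) had an H3K27me3 peak in 5 of 5 P7 libraries and in none of the 9 later ones, and no H3K4me3 peak. The downstream start (29093769) had H3K4me3 peaks in 2 of 3 P7 libraries, in 2 of 2 at P12 and in 2 of 2 at P21. H3K27me3 peaks there went from 5 of 5 at P7 through 2 of 4 at P12 to 0 of 5 at P21. At P7 both Cdkn1a starts met the same H3K27me3 stretch, chr17:29091264-29095867, which began past the upstream start and covered the downstream one. In the sequences printed above, the downstream starts of Ccnd3 and Cdkn1a are the CpG-rich ones. At Ccnd2 the most upstream start (chromosome 6, position 127152188) had H3K4me3 peaks in 3 of 3 P7, 0 of 2 P12 and 1 of 2 P21 libraries. The starts at 127151048 and 127151111 had them in 3 of 3, 1 of 2 and 2 of 2. H3K27me3 peaks stood in 5 of 5, 4 of 4 and 4 of 5 libraries upstream, and in 2 of 5, 2 of 4 and 4 of 5 at the downstream starts. The classes of Ccnd2 above are those of its most upstream start.

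The partners of these genes in the same pathway were read from lists chosen with earlier results of these data known. Their counts stand beside 14.4% of all TSS lower and 8.98% higher in H3K4me3 (median 0.19), and 25.4% higher and 23.5% lower in H3K27me3 (median 0.34). These shares are not matched for signal. In deciles 7 to 10 of mean H3K4me3, 19.2% to 48.2% of TSS were called lower, with medians from -0.35 to -0.58. The Myc network genes, for example, carried 50.2 to 155 CPM of H3K4me3 at P7. Of 7 G1 and S phase kinases and cyclins, 5 fell in H3K4me3 from P7 to P21, led by Ccna2 (-1.45, SE 0.26, adjusted p = 2.69e-06), the cyclin of S phase, Cdk6 (-0.97, SE 0.24, adjusted p = 0.00164) and Cdk4 (-0.95, SE 0.25, adjusted p = 0.00370), both partners of the D cyclins. In H3K27me3 all 4 tested rose, while Cdk4, Ccne1 and Ccne2 were left out by the filter on low counts. Cdk6 rose by 2.59 (SE 0.34, adjusted p = 6.76e-08), from 20.7 to 129 CPM. Cdc25a rose by 1.81 (SE 0.52, adjusted p = 0.00377), from 4.19 CPM at P7, and Cdk2 by 1.13 (SE 0.35, adjusted p = 0.00609). Ccna2 rose by 1.75 (SE 0.56, adjusted p = 0.00903), from 4.26 CPM at P7. Genes this low at P7 pass the filter only through later libraries, so the count of 4 is partly set by the filter. Medians over the list were -0.79 for H3K4me3 and 1.78 for H3K27me3.

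Of 13 pocket proteins and E2F factors, 5 fell and 0 rose in H3K4me3, among them E2f3 (-1.50, SE 0.32, adjusted p = 1.54e-04), E2f7 (-0.83, SE 0.23, adjusted p = 0.00596) and E2f2 (-0.93, SE 0.29, adjusted p = 0.0134). In H3K27me3, 4 of 9 tested rose, with E2f2 (1.71, SE 0.44, adjusted p = 0.00134), E2f4 (1.32, SE 0.47, adjusted p = 0.0174) and Tfdp2 (1.44, SE 0.53, adjusted p = 0.0222), the partner of E2F proteins, and 1 fell, the repressor E2f6 (-1.91, SE 0.30, adjusted p = 2.91e-07). E2f2, E2f4 and Tfdp2 were low at P7, at 5.79, 6.16 and 4.88 CPM. The medians were -0.51 and 0.65.

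In the Myc network of 9 genes, 3 fell and 0 rose in H3K4me3: Mnt (-0.80, SE 0.24, adjusted p = 0.00929), Mxi1 (-0.78, SE 0.25, adjusted p = 0.0179) and Mxd3 (-0.80, SE 0.29, adjusted p = 0.0364), which compete with Myc proteins for their partner Max. In H3K27me3, 3 of 6 tested rose: Mycl (2.49, SE 0.34, adjusted p = 1.60e-08), the third Myc-family gene, from 7.54 to 51.0 CPM, Mnt (2.54, SE 0.57, adjusted p = 1.96e-04) and Mxd4 (2.36, SE 0.65, adjusted p = 0.00249). Mnt and Mxd4 were near the floor at P7, at 2.255 and 1.92 CPM. The Max-binding Mga fell (-0.96, SE 0.39, adjusted p = 0.0376). The medians were -0.40 and 1.54.

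The other INK4 genes, Cdkn2a and Cdkn2b, changed in H3K27me3 by -1.72 (SE 0.23, adjusted p = 9.78e-09) and -0.63 (SE 0.22, adjusted p = 0.0178), from 390.0 to 123 CPM and from 347 to 228 CPM. Of 4 genes that turn over p27 and Myc proteins, Cks1b, a cofactor of the ligase that degrades p27, fell in H3K4me3 (-2.30, SE 0.59, adjusted p = 0.00244) and Skp2, the ligase's receptor subunit, rose (1.21, SE 0.47, adjusted p = 0.0451). None of 3 tested was called in H3K27me3.

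Cell identity was read from marker lists. Of 11 granule cell markers, 10 were tested for H3K4me3. The mature markers Cbln3 (2.76, SE 0.39, adjusted p = 2.25e-09), Gabrd (2.23, SE 0.28, adjusted p = 4.91e-12) and Gabra6 (1.38, SE 0.38, adjusted p = 0.00553) rose from P7 to P21, and 6 fell. These were the progenitor factor Atoh1 (-1.63, SE 0.28, adjusted p = 2.23e-06), Zic1 (-1.48), Pax6 (-1.28), Etv1 (-1.28), Barhl1 (-1.16) and Zic2 (-0.98). Rbfox3 had no call (0.46, SE 0.52, adjusted p = 0.460). Neurod1, which defined the sort, is listed at 0 in all libraries of both marks. The summed H3K4me3 of 12 Purkinje cell and interneuron markers ran from 441 to 541 CPM at P7 and from 380 to 401 CPM at P21, that of 8 astrocyte and Bergmann glia markers from 212 to 239 and from 168 to 202 CPM, and that of 8 oligodendrocyte lineage markers from 167 to 188 and from 187 to 197 CPM. For 10 microglia and endothelial markers it ran from 192 to 248 and from 199 to 247 CPM, and for 4 markers of unipolar brush cells and nuclear neurons from 113 to 144 and from 132 to 160 CPM. Summed H3K27me3 was lower at P21 for most of these lists: from 5167 to 6178 CPM at P7 and from 1156 to 2163 CPM at P21 for Purkinje cells and interneurons, from 3102 to 3761 and from 545 to 1146 CPM for the oligodendrocyte lineage, from 2065 to 2404 and from 629 to 1094 CPM for microglia and endothelium, and from 1920 to 2313 and from 262 to 557 CPM for unipolar brush cells and nuclear neurons. For astrocytes and Bergmann glia it ran from 482 to 618 and from 347 to 710 CPM. For the granule cell markers H3K27me3 summed to between 947 and 1059 CPM at P7 and between 227 and 378 CPM at P21. Most of that difference was Gabrd, at a mean of 677 CPM at P7 and 19.96 CPM at P21 (-5.06, SE 0.28, adjusted p = 9.59e-22), while Pax6 and Barhl1 also fell and Atoh1 rose (0.69, SE 0.22, adjusted p = 0.00941). Their H3K4me3 summed to between 510 and 797 CPM and between 456 and 474 CPM. No marker of the other cell types was at 0 in all libraries. The part of other cells in the members' changes was not tested.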

How the data were processed

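ChIP-seq of H3K4me3 and H3K27me3 was read as 75-bp reads, per the labels' protocols, which name 2 library kits without assigning them. The authors deposited raw read counts per TSS for 21 ChIP libraries and 1 peak list for each of 39 libraries (inputs included). In the deposited lists only the intervals were used. HOMER 4.11, ChIPseeker 1.30.3 and mm10 are named without roles, per the submitters' processing notes, and the aligner, caller and counted window have no description in the labels or files used here. Of 24045 gene IDs, 23985 had a GRCm38.p6 record and 6 had no H3K27me3 value.

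Counts were fitted over all TSS in R 4.3.3 with edgeR 4.0.16 (filterByExpr, TMM, robust quasi-likelihood test, Benjamini-Hochberg adjustment, threshold 0.05), with 3 stages in 1 fit. H3K27me3 also had a term for input arrangement: replicates 1 and 2 of a stage share 1 input, later ones have their own. Alternatives were other scalings, no filter, DESeq2 1.42.0, other designs, each input arrangement alone and each library left out. The scripts were tested on simulated data.

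Libraries of the same replicate number deviated together in H3K27me3 from P12 to P21 (correlations 0.349 to 0.648 over 4 pairs). The closest library had the same number for replicates 3 and 4, whereas replicates 1 and 2, which share an input, matched each other. Pairing by number was therefore not shown for replicates 1 and 2. Against P7 the correlations were -0.087 to 0.318. A fit with the numbers as a replicate block kept the 3 calls. All members are named. Of each pathway list, up to 3 genes per direction and mark with the smallest adjusted p from P7 to P21 are named. The H3K27me3 value of Ccna2 was added after its value was seen. Likeness is Pearson's r of log2 CPM. The members and lists were chosen with earlier results of these data known. Intervals and p-values cover these libraries only. Python 3.11.15, pandas 2.3.3, numpy 2.4.6 and scipy 1.17.1 were used.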

Additional observations from a re-analysis of the deposited data

Results flagged for a closer look

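H3K27me3 at Myc in P7 replicate 5 stood apart from its group, at 17.96 CPM (12 counts) where the other 4 P7 libraries lay between 6.06 and 8.996 CPM. Of 30 groups of 4 or 5 libraries examined for a library far from the others, 1 was found, where chance gives about 1 in 20. This library lay below all P12 and P21 libraries at Myc, and the rise from P7 to P21 was past the threshold without each library in turn, between 3.44 and 4.0.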

How the results depend on the processing

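The calls of Myc, Mycn and Ccnd2 in H3K27me3 from P7 to P21 and of Myc, Ccnd2 and Cdkn1b in H3K4me3 held in all alternatives that gave a value. With P21 against P7 in H3K4me3, 4 members instead of 7 were called with trended scaling and 4 with the replicate block (1381 and 1310 of 20748 TSS), and between 3 and 9 with 1 library left out (660 to 11444 TSS; 4 members without P21 replicate 1, 3 without replicate 2, where the lone P21 library is assumed to vary like the others). With P12 against P7, 2 instead of 4 were called under both settings (770 and 680 TSS) and between 0 and 6 with 1 library left out (69 to 8191 TSS; 1 without P12 replicate 1, 0 without replicate 2). In H3K27me3, replicates 3 and later alone called 3 instead of 5 members from P7 to P21 and 0 instead of 3 from P12 to P21. From P12 to P21 trended scaling called 5, with Ccnd1 as lower and Cdkn1c as higher added. From P7 to P21 it called Mycn, Myc, Ccnd2 and Cdkn1c higher and lost Ccnd1 and Ccnd3. Leaving out 1 library gave 3 to 6, 5 to 7 and 2 to 4 for the 3 H3K27me3 contrasts. DESeq2 gave no adjusted p for Mycn from P12 to P21. Peak counts moved with the list rule: 6 instead of 2 members had H3K4me3 at P21 with a peak in at least 1 list, and 3 instead of 5 (P12) and 2 instead of 6 (P21) had H3K27me3 with a peak in every list. Leaving out 1 list gave 2 to 6 for H3K4me3 at P21 and left the other 5 stage and mark counts as they were.

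Directions reversed as follows. With trended scaling, H3K27me3 of Ccnd1 was 0.67 (P12) and 0.077 (P21), of Ccnd3 0.15 (P21) and of Cdkn1c 0.59 and 1.55 against P7, of Cdkn1a -0.13 from P12 to P21, and H3K4me3 at P12 against P7 was -0.15 at Ccnd3, -0.72 at Cdkn1a and 0.055 at Cdkn2d, and at P21 -0.60 at Cdkn1c. With library totals, H3K27me3 against P7 was 0.60 at Ccnd1, 0.59 at Cdkn1a and 0.17 at Cdkn1c (P12), and 0.069 at Ccnd3, 0.75 at Cdkn1a and 0.85 at Cdkn1c (P21). With size factors by relative log expression it was -0.0038 (Cdkn1c, H3K4me3, P21 against P7) and -0.032 (Cdkn1a, H3K27me3, P21 against P12), which DESeq2 put at -0.022. With replicates 1 and 2 alone, Ccnd3 was -0.28 and Cdkn1a -0.19 from P12 to P21. With later replicates alone Ccnd1 was 0.077 (P12) and Cdkn1c 0.33 (P21) against P7. Leaving out 1 library gave ranges of -0.18 to 0.32 for Cdkn1c, -0.12 to 0.58 for Ccnd3 and -0.28 to 0.066 for Cdkn1b in H3K4me3, and of -0.029 to 0.50 for Ccnd2 (P12 against P7), -0.051 to 0.15 for Ccnd3 and -0.11 to 0.23 for Cdkn1a (P21 against P12) in H3K27me3. The causes were not tested beyond what each setting changes. For H3K4me3 the replicate numbers did not pair the libraries (correlations of deviations between -0.303 and 0.071). In H3K27me3 the block changed no call. Low counts limit Cdkn1a, Ccnd3 and Cdkn1c in H3K4me3 and Cdkn2d in H3K27me3. They also limit the P7 side of the H3K27me3 rises of Mycn and Myc, with 0 to 12 and 2 to 12 counts per P7 library. Having 2 libraries per group limits every H3K4me3 result after P7.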
